A study of Mus musculus with 7 samples.

Results

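A set of 10 genes of the G1 phase machinery, the CDK inhibitors Cdkn1a, Cdkn1b, Cdkn1c, Cdkn2a, Cdkn2b, Cdkn2c and Cdkn2d and the D-type cyclins Ccnd1, Ccnd2 and Ccnd3, were followed in cultured group 2 innate lymphoid cells (ILC2s) with and without Gfi1. They were chosen by gene family, as every probe whose accession belongs to one of these 10 genes, which gave 14 of the 39429 probes on the array. All 14 probes lay well above background on all 7 arrays, so all 10 genes were among the 25347 genes tested. Of these 25347, 16690 had a gene symbol, and the rest were sequences without one, each counted as a gene. Shares of all tested genes given below include both kinds. ILC2s are lymphocytes that lack antigen receptors and secrete type 2 cytokines. Wild-type mice (Gfi1+/+) and mice homozygous for a GFP insertion in the Gfi1 locus (Gfi1GFP/GFP, labelled Gfi1 knockout), an allele that ends Gfi1 function and reports the activity of the promoter, received IL-25 daily for 4 days. On day 5 cells with the surface markers Sca-1, ICOS, CD127 and c-Kit and without lineage markers were sorted from mesenteric lymph nodes, pooled from 3 wild-type or 6 knockout mice a sample, and kept for 6 days with IL-2 (50 ng/ml), IL-7 (10 ng/ml) and IL-25 (50 ng/ml). Strain, age and sex are not given in the sources used here. The wild type had 4 arrays and the knockout 3, with the ILC2 sample in red and a universal mouse reference RNA in green on each. The labels give each sample its own number but do not pair samples between the genotypes.

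D-type cyclins are made in response to growth signals and activate CDK4 and CDK6, which phosphorylate the retinoblastoma proteins and so release E2F factors for entry into S phase. Inhibitors of the INK4 family, encoded by Cdkn2a to Cdkn2d, bind CDK4 and CDK6 and keep the D cyclins out. Those of the Cip/Kip family, encoded by Cdkn1a (p21), Cdkn1b (p27) and Cdkn1c (p57), bind cyclin and kinase together and mainly block CDK2. In other blood cells Gfi1, a DNA-binding repressor, has been described as acting on the promoters of Cdkn1a and Cdkn2b together with the factor Miz-1.

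The values below are log2 ratios of sample over reference, and a difference is knockout minus wild type, unless a channel is named. On each array 67.4% to 80.9% of the probes were well above background in the sample channel. Across genes, which are not independent replicates, the correlation of log ratios was 0.979 to 0.989 within the wild type and 0.969 to 0.980 within the knockout. The Gfi1 probe read 2.25 higher on the knockout arrays (limma adjusted p = 1.63e-05), and since the allele keeps the promoter and the place of the probe was not examined, this checks no label. All 12 ILC2 markers were above background on every array (summed sample-channel intensity 1040000 to 1660000 in wild type and 986000 to 1210000 in knockout, with 1 marker higher and 3 lower), and of the T cell, B cell, NK cell, myeloid, and mast cell and basophil markers tested Cpa3, of mast cells, was called, lower in the knockout. Detection on every array was not particular to the ILC2 list. It held for all 8 T cell markers, 4 of 5 B cell markers and 3 of the 4 myeloid markers on the array. It also held for 2 of 4 NK markers and 2 of 5 mast cell and basophil markers. In wild type and knockout the 8 T cell markers summed to 14200 to 37200 and 20500 to 40000, the 5 B cell markers to 25600 to 34600 and 25600 to 35700, and the 4 myeloid markers on the array to 3030 to 5320 and 5100 to 6070. The 4 NK markers summed to 139 to 245 and 268 to 334, which did not overlap, with Ncr1 and Klra8 above background on no array, and the 5 mast cell and basophil markers to 161 to 636 and 271 to 361, with Fcer1a above background on none. The part of these cells in the results was not tested. The arrays lay on 3 slides: slide 1 held wild-type array 4 and knockout array 1, slide 2 held wild-type array 1 and knockout arrays 2 and 3, and slide 3 held the other 2 wild-type arrays.

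Knockout array 3 stood apart from the other knockout arrays. The scanner software marked it for evaluation, for a spread of the red negative controls of 6.43 intensity units against 3.1 to 4.8 on the other 6 arrays, which were all in its range. Xist, the RNA of the inactive X chromosome, read 3.26 on knockout array 3 and 2.79 and 2.81 on wild-type arrays 3 and 4, and 0.04 to 0.14 on the other 4 arrays. Ddx3y, a Y-linked gene, ran the other way, at -4.35 to -3.75 on those 3 arrays and 1.0 to 1.84 on the other 4. Knockout arrays 1 and 2 can thus be set against wild-type arrays 1 and 2 within the low-Xist pools, and knockout array 3 alone against wild-type arrays 3 and 4 within the high-Xist pools. Values within each kind of pool, or without knockout array 3, are given beside the members' differences, and the part of sex or array quality in them was not tested.

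In the knockout samples some inhibitors were higher and others lower, and no D-type cyclin passed the test. Of the 7 inhibitors 3 rose (Cdkn2b, Cdkn2c and Cdkn1c) and 2 fell (Cdkn1b and Cdkn2d) at a limma adjusted p under 0.05, 5 called of the 10 genes. Over all 25347 genes tested 7.53% were called, 3.29% higher and 4.24% lower. The median difference of the 10 genes was 0.18, against -0.01 over all tested genes. Groups did not overlap in 6 of the 10 genes, 4 higher and 2 lower, against 18.3% of all tested genes, 8.08% higher and 10.2% lower. With the Xist pattern as a block, an alternative added after seeing the data, 6 of the 10 genes were called, the same 5 and Ccnd2. With slide as a block, fixed unless called random, 1.89% of genes were called and Cdkn2b was the single member among them. Slide 3 held no knockout array, so in that fit its 2 wild-type arrays add nothing to the difference between the groups. With slide as a random block 6 of the 10 genes were called, the same 5 and Ccnd2. The correlation within slides was estimated at -0.14 in that fit. The reference channel differed between the groups by at most 0.174 on any of the 14 probes, and the cells were measured in bulk, so that fewer expressing cells and less RNA per cell cannot be told apart.

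**Figure D1:**
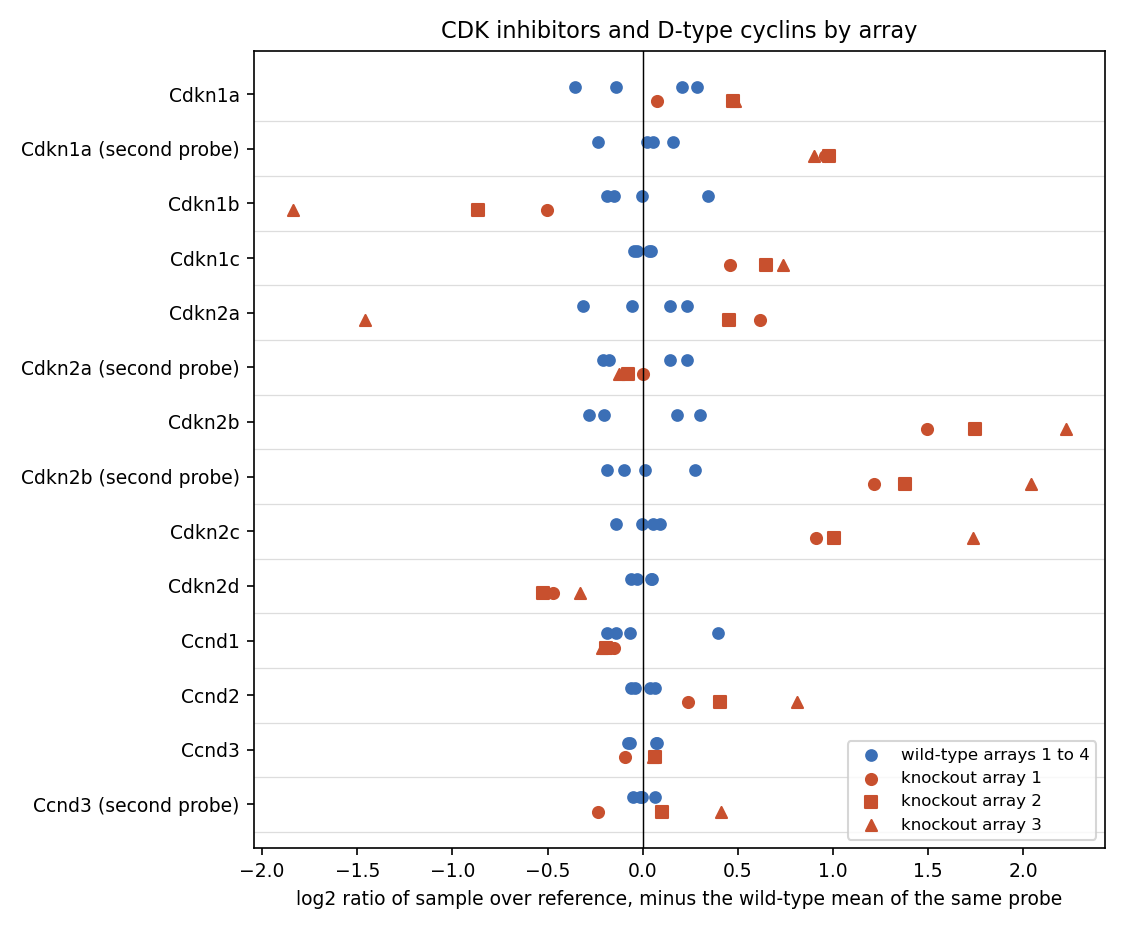
Log2 ratio of sample over reference for each of the 14 probes (rows), shown as the difference from the wild-type mean of the same probe (x axis, log2), with 4 wild-type arrays as blue dots and 3 knockout arrays as orange symbols. All knockout arrays lie to the right of every wild-type array for both Cdkn2b probes, Cdkn2c, Cdkn1c, Ccnd2 and the second Cdkn1a probe. They lie to the left of every wild-type array for Cdkn1b and Cdkn2d. Knockout array 3 (triangles) was the farthest from the wild-type mean in 11 of the 14 probes.

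The windows before the starts of 3 genes are shown because Cdkn2b gave the largest rise of the 10 genes, Cdkn1b the largest fall, and Cdkn1a has 2 annotated starts and 2 probes that differed. Each is the 250 bases upstream of an annotated start, from RefSeq (GRCm38.p6), read 5′ to 3′ on the strand of the gene, with capitals at each AATC, the core that Gfi1 binds, or its reverse complement GATT:
Cdkn2b, chr4:89311033-89311282, minus strand: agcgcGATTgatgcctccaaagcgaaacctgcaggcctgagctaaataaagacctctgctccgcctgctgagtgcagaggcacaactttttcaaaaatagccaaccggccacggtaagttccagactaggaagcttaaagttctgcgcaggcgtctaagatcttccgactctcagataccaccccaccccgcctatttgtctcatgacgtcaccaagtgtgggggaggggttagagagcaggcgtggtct
Cdkn1b, chr6:134920151-134920400, plus strand: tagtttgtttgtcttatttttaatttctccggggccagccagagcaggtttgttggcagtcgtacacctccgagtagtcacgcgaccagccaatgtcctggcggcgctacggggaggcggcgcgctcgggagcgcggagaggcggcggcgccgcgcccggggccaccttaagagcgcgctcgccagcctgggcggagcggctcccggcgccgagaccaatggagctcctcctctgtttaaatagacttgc
Cdkn1a, first start, chr17:29090729-29090978, plus strand: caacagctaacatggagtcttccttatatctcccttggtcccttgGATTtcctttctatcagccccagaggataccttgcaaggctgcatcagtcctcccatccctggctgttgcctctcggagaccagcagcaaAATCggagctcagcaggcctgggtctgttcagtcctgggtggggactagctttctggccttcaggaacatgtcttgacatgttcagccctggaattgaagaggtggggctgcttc
Cdkn1a, second start, chr17:29093519-29093768, plus strand: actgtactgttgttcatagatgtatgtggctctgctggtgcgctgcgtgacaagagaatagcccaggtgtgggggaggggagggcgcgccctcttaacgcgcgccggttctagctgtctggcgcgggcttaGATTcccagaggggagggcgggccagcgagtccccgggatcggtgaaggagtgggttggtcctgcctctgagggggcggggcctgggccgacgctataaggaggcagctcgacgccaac

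The AATC core was found, on either strand, 1 time in the Cdkn2b window, 2 times at the first and 1 time at the second Cdkn1a start, and 0 times in the Cdkn1b window. Of all 32851 RefSeq windows of the same length 69.0% hold it, so a match is common. The longer Gfi1 motif TAAATCAC, which contains the core, was in 0.514% of all windows and in none of the 11 windows of the 7 members that had one (Cdkn1c, Ccnd1 and Ccnd2 had no entry). The second Cdkn1a start carried 2 GC boxes (GGGCGG, either strand, in 32.7% of windows) and the first carried 0, with GC contents of 64.8% and 54.0%.

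Among the INK4 genes Cdkn2b, which encodes p15, changed most. Its log2 ratios were -0.94, -0.82, -1.32 and -1.40 on wild-type arrays 1 to 4 and 0.38, 0.63 and 1.11 on knockout arrays 1 to 3. On this probe, the brighter one, every wild-type log ratio lay below 0 and every knockout log ratio above 0. The normalization within arrays sets this 0. Before it, wild-type arrays 1 and 2 read 2678 and 2309 in the sample channel, above the highest reference-channel value of 2222. The level went from -1.12 ± 0.28 (SD, n = 4) to 0.71 ± 0.37 (SD, n = 3), a 3.54-fold rise (log2 difference 1.82 ± 0.19, SE, adjusted p = 0.000672). A second, dimmer probe of Cdkn2b gave a 2.92-fold rise (1.55 ± 0.19, SE, limma adjusted p over all probes 0.00144), also with no overlap. On it knockout array 1 stood at -0.05, just below 0. Comparisons on a single slide gave 1.78 on slide 1 and 1.81 on slide 2, and the fit blocked on slide gave 1.80 (adjusted p = 0.00854). It was 1.38 within the low-Xist pools and 2.47 within the high-Xist pools. Cdkn2b was called in all 28 alternative fits that gave a test. The second probe's difference was smaller than that of the first by 0.28, and the probe-to-probe difference did not overlap between groups (exact permutation test over the 35 splits of the arrays, two-sided p = 0.0571, the smallest they can give, and 0.114 adjusted over the 4 genes with 2 probes). With the log ratio as the scanner wrote it the order was reversed, at 1.96 for the second probe and 1.82 for the first. Which probe gave the larger rise thus depended on the processing.

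Cdkn2c, which encodes p18, rose as well. Its log2 ratios were 0.72, 0.63, 0.49 and 0.68 in wild type and 1.54, 1.64 and 2.37 in the knockout. The groups stood apart, and knockout array 3 was the highest. The change was 2.33-fold (1.22 ± 0.18, SE, adjusted p = 0.0037), from 0.63 ± 0.10 (SD, n = 4) to 1.85 ± 0.45 (SD, n = 3). Without knockout array 3 the rise was 0.96 (adjusted p = 0.000858). It was 0.92 within the low-Xist and 1.78 within the high-Xist pools, 0.86 on slide 1 and 1.28 on slide 2. Blocking on slide gave 1.1 ± 0.22 (SE, adjusted p = 0.0667), which ended the call.

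Cdkn2d, which encodes p19 of the INK4 family, fell slightly. Wild-type arrays read 2.11, 2.03, 2.10 and 2.00 and knockout arrays 1.59, 1.54 and 1.73. The spread within each group was small beside the gap between them, and knockout array 3 lay nearest to wild type. The fall was 1.36-fold (-0.44 ± 0.08, SE, adjusted p = 0.011), or 1.53-fold in the sample channel, where the reference channel also differed by -0.17. It was -0.51 within the low-Xist and -0.32 within the high-Xist pools, and -0.41 and -0.48 on slides 1 and 2. Blocking on slide ended the call (-0.45 ± 0.11, SE, adjusted p = 0.126), as did median centring in place of loess (-0.36, adjusted p = 0.113) and the log ratio as the scanner wrote it (-0.40, adjusted p = 0.0637).

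Cdkn2a, which encodes p16 and, from another reading frame, the p53 activator ARF, did not pass the test on either probe. Both probes were designed on the same transcript, and whether they read the RNA of p16 or that of ARF was not examined. On the brighter probe wild-type arrays read -4.22, -4.31, -4.51 and -4.77 and knockout arrays -3.84, -4.00 and -5.91. Knockout arrays 1 and 2 lay above all wild-type arrays and knockout array 3 below all of them, so the mean difference of -0.13 ± 0.43 (SE, adjusted p = 0.918; 95% interval -1.09 to 0.83) hides values on both sides. Without knockout array 3 the difference was 0.53 (adjusted p = 0.0792), and it was 0.35 within the low-Xist and -1.27 within the high-Xist pools. The second probe showed no such split: knockout arrays read -3.08, -3.16 and -3.21, inside the wild-type range of -3.29 to -2.84 (difference -0.07 ± 0.12, SE, adjusted p over all probes 0.841). Both probes lay far below the reference RNA on all arrays.

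In the Cip/Kip family Cdkn1b, which encodes p27, an inhibitor typical of resting lymphocytes, showed the largest fall of the 10 genes. Its log2 ratios were 1.70, 1.74, 2.23 and 1.88 in wild type and 1.38, 1.02 and 0.05 in the knockout. No knockout sample reached the wild-type range, but the knockout samples differed widely among themselves. The level went from 1.89 ± 0.24 (SD, n = 4) to 0.82 ± 0.69 (SD, n = 3), a 2.1-fold fall (-1.07 ± 0.27, SE, adjusted p = 0.0472). The call stood just inside the threshold and was lost on leaving out any wild-type array or knockout array 2 (adjusted p 0.074 to 0.113). It was kept in 13 of 28 alternative fits. Several of these held the same difference of -1.07 and changed only a filter, a probe rule or a variance setting. The call was lost, among others, in the sample channel alone (limma adjusted p = 0.0925) and with the scanner's ratio (0.108). It was also lost with median centring (0.054) and with background subtracted to a floor (0.112). Without knockout array 3 the difference was -0.68 (adjusted p = 0.0427), and it was -0.51 within the low-Xist and -2.01 within the high-Xist pools. On slide 1 it was -0.50 and on slide 2 it was -1.16, and the fit blocked on slide gave -0.88 (adjusted p = 0.322).

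Cdkn1c, which encodes p57, an imprinted inhibitor known from stem and progenitor cells, rose from a dim level. It read -0.29, -0.21, -0.27 and -0.20 on the wild-type arrays and 0.22, 0.41 and 0.49 on the knockout arrays. Wild-type values lay within a span of less than 0.1 and every knockout value was higher. The rise was 1.53-fold (0.61 ± 0.09, SE, adjusted p = 0.00309). Its sample-channel intensity was 104 to 232 in wild type and 330 to 363 in knockout, where the offset of 50 used here draws ratios towards 0, and the log ratio as the scanner wrote it gave 1.0 (adjusted p = 0.00325). The difference was 0.56 within the low-Xist and 0.73 within the high-Xist pools, and 0.42 and 0.74 on slides 1 and 2. Blocking on slide gave 0.60 ± 0.12 (SE, adjusted p = 0.06), which ended the call.

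Cdkn1a, which encodes p21, the inhibitor that p53 induces, depended on the probe. The brighter probe, designed on NM_007669, read 1.87, 1.95, 1.31 and 1.52 in wild type and 1.74, 2.14 and 2.15 in the knockout. The groups overlapped, with a difference of 0.03 within the low-Xist and 0.73 within the high-Xist pools, and this probe, which stood for the gene, did not pass the test (0.35 ± 0.17, SE, adjusted p = 0.306; 95% interval -0.03 to 0.73). The dimmer probe, designed on NM_001111099, another Cdkn1a transcript, read 0.19, 0.29, -0.10 and 0.16 in wild type and 1.09, 1.11 and 1.03 in the knockout. On it the 3 knockout arrays lay close together and all above wild type. Its signal rose 1.93-fold (0.95 ± 0.10, SE, adjusted p over all probes 0.000686), where 7.47% of all probes were called. This rise was 0.93 on slide 1 and 0.89 on slide 2, and it was 0.97 without knockout array 3. It passed in all 13 alternative fits run for this probe, among them the fit blocked on slide (0.91, adjusted p over all probes 0.0272).

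**Figure D2:**
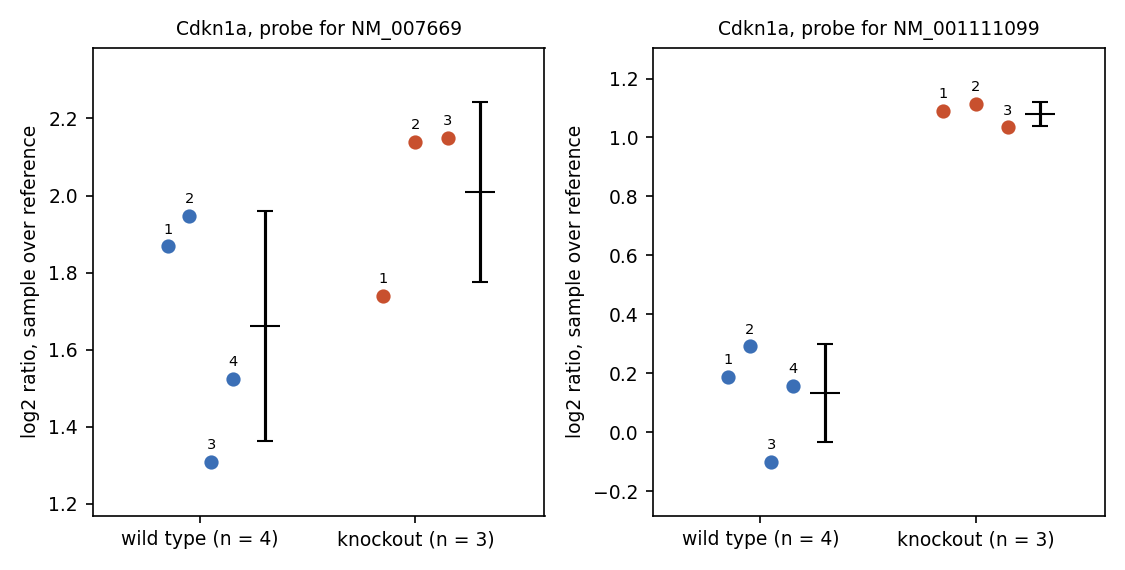
Log2 ratio of sample over reference (y axis, a separate scale for each panel) of the 2 Cdkn1a probes on the 4 wild-type (blue) and 3 knockout (orange) arrays, with array numbers above the points and mean ± SD as black bars. On the left, for NM_007669, knockout array 1 lies at 1.74 among the wild-type arrays; on the right, for NM_001111099, the knockout arrays lie at 1.03 to 1.11 and no wild-type array is above 0.29.

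The dimmer Cdkn1a probe exceeded the brighter one in its knockout difference by 0.60, and the per-array difference between the probes ran from -1.68 to -1.37 in wild type and from -1.12 to -0.65 in the knockout. These ranges did not overlap (exact permutation test, two-sided p = 0.0571, the smallest the design allows, 0.114 adjusted over 4 genes). The brighter probe is printed in 10 spots on each array, and over all 7 arrays together 8 of its spots were left out for flags. The dimmer one has 1 spot on each array, and none was left out. Sample-channel intensities of the dimmer probe were 152 to 288 in wild type and 620 to 685 in knockout, and those of the brighter one 10929 to 29598 on all arrays. Averaging both probes gave Cdkn1a a difference of 0.65 and a call (adjusted p = 0.0134), so whether Cdkn1a counts as higher rests on the probe used. The RefSeq windows do not say which start gives which transcript, and where the probes lie on the transcripts was not examined.

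None of the 3 D-type cyclins was called, with 1 of them at an unadjusted p under 0.05 in limma. Ccnd2, the D cyclin most tied to cytokine signals in lymphocytes, came nearest. It read 1.82, 1.90, 1.79 and 1.92 in wild type and 2.10, 2.26 and 2.67 in the knockout. Every knockout value was higher, and the difference of 0.49 ± 0.13 (SE) stood just outside the threshold (adjusted p = 0.0522; 95% interval 0.20 to 0.77). It was 0.17 on slide 1 and 0.65 on slide 2, and 0.32 within the low-Xist and 0.81 within the high-Xist pools. It passed in 6 of 28 alternative fits, among them the Xist pattern as a block (0.52, adjusted p = 0.0256) and the fit without knockout array 1 (0.61, adjusted p = 0.0212). It did not pass in the other 22, among them the fit blocked on slide (0.45, adjusted p = 0.359) and the fit without knockout array 3, where it was 0.32 (adjusted p = 0.0875).

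Ccnd3, the D cyclin of developing and activated lymphocytes, showed values close together. Its brighter probe read -0.07, 0.07, 0.07 and -0.08 in wild type and -0.09, 0.06 and 0.05 in the knockout, a difference of 0.01 ± 0.08 (SE, adjusted p = 0.973), with a 95% interval from -0.18 to 0.20 and a sign that changed between alternatives (-0.02 within the low-Xist and 0.06 within the high-Xist pools). The second Ccnd3 probe read 1.35, 1.39, 1.40 and 1.46 in wild type and 1.17, 1.5 and 1.81 in the knockout. Its knockout values lay on both sides of the wild-type range (0.09 ± 0.13, SE, adjusted p over all probes 0.792). Ccnd1, the D cyclin of many adherent cells, read -4.99, -4.94, -4.40 and -4.87 in wild type and -4.96, -4.99 and -5.01 in the knockout. All 7 arrays lay far below the reference, wild-type array 3 was the highest, and the difference was -0.19 ± 0.14 (SE, adjusted p = 0.538; 95% interval -0.49 to 0.12). Ccnd1 was at -0.05 without wild-type array 3 and at -0.04 with slide as a block, and at -0.01 within the low-Xist and -0.38 within the high-Xist pools.

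**Figure D3:**
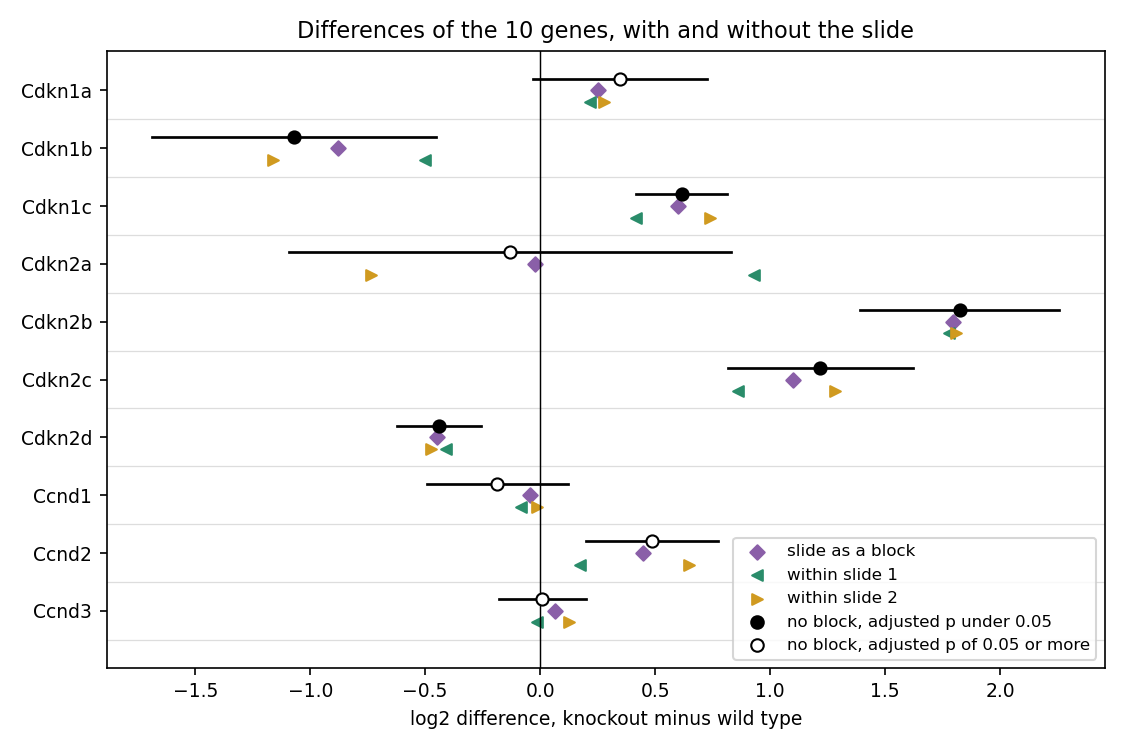
Log2 difference, knockout minus wild type (x axis), of the 10 genes (rows). Circles are the fit without a block with its 95% interval, filled where the adjusted p is under 0.05; diamonds are the fit with slide as a block and triangles the values within slides 1 and 2. The within-slide values of Cdkn2b meet at 1.78 and 1.81, while those of Cdkn1b (-0.50 and -1.16) and Cdkn2a (0.93 and -0.74) lie apart.

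The size of several differences rested on knockout array 3. It was the farthest of the 3 knockout arrays from the wild-type mean in 8 of the 10 genes, among them for Cdkn1b, Cdkn2b, Cdkn2c and Ccnd2 in the direction of the group difference. Without it 5 of the 10 genes were still called, 3 higher and 2 lower, with differences of 1.62 for Cdkn2b, 0.96 for Cdkn2c, 0.55 for Cdkn1c, -0.68 for Cdkn1b and -0.50 for Cdkn2d. The second Cdkn2b probe gave 1.3 without it.

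The other G1 genes were described in 6 lists, 105 genes tested of 112 listed. Of these 5 passed the test, 3 higher and 2 lower, or 4.76%, against 7.53% of all tested genes. The kinases and cyclins that the members act on were listed together with activators and binding partners of these. Of these 12 partner kinases and activators 0 passed. In this list 6 genes stood at an unadjusted p under 0.05 in limma, all higher, and the median difference was 0.26. Over all 25347 tested genes 4950 had an unadjusted p under 0.05, 2284 of them higher and 2666 lower. Nearest were Cks2, a CDK-binding subunit (0.76 ± 0.22, SE, adjusted p = 0.0725), Cdc25a, a phosphatase that activates CDK2 (0.36), Cdk2 (0.42) and Cdk4, a partner kinase of the D cyclins (0.28), the last 3 at adjusted p from 0.0844 to 0.138. Of 15 retinoblastoma family and E2F genes 0 passed, again with 6 at an unadjusted p under 0.05, all higher. E2f7, an E2F repressor, read 0.55 ± 0.18 (SE, adjusted p = 0.122), and Tfdp1, a dimer partner of E2F factors, 0.23 ± 0.08 (SE, adjusted p = 0.151).

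No proliferation marker passed the test. Of 17 tested 16 had a positive difference, with a median of 0.41, and 0 were called, with 9 at an unadjusted p under 0.05 in limma, all higher. Over all 25347 tested genes 11657 differences were positive and 2284 genes were higher at an unadjusted p under 0.05. Rrm2, a ribonucleotide reductase subunit, stood at 0.79 ± 0.21 (SE, adjusted p = 0.0594) and Mcm4, of the replicative helicase, at 0.56 ± 0.16 (SE, adjusted p = 0.0751). With slide as a block the median of this list was 0.24 and none was called. With slide as a random block Rrm2 and Mcm4 passed (limma adjusted p = 0.0388 and 0.0496), and with replicate number as a block Mcm3 did (0.047). The part that the share of cycling cells has in the differences of the 10 genes was not tested.

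Among genes known to act on the levels of the members, 1 of 18 turnover genes and 3 of 23 upstream transcriptional regulators passed the test, against 7.53% of all tested genes. Gsk3b, a kinase that marks D cyclins for export and breakdown, fell 1.58-fold (-0.66 ± 0.12, SE, adjusted p = 0.0099). Of the upstream regulators Id1, an inhibitor of E proteins, rose 2.23-fold (1.16 ± 0.17, SE, adjusted p = 0.00415) and Eed, a Polycomb subunit, 1.57-fold (0.65 ± 0.12, SE, adjusted p = 0.0121), while Ets2, a transcription factor, fell 1.3-fold (-0.38 ± 0.09, SE, adjusted p = 0.0393). With slide as a block the single call in all 6 lists was Id1 (1.03, adjusted p = 0.0345). Foxo1, a known activator of Cdkn1b, was not called (0.33 ± 0.09, SE, adjusted p = 0.0609), and Zbtb17, the gene of Miz-1, was too dim to be tested. Of 20 other G1 regulators Cdkn3, a phosphatase of CDK2 despite its name, was the single call (0.41 ± 0.10, SE, adjusted p = 0.0343). The count of 5 calls ran from 2 without knockout array 2 to 10 without knockout array 3, with 9 without wild-type array 1 and 3 without wild-type array 2 or 4, and was 11 with the Xist pattern as a block.

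**Figure D4:**
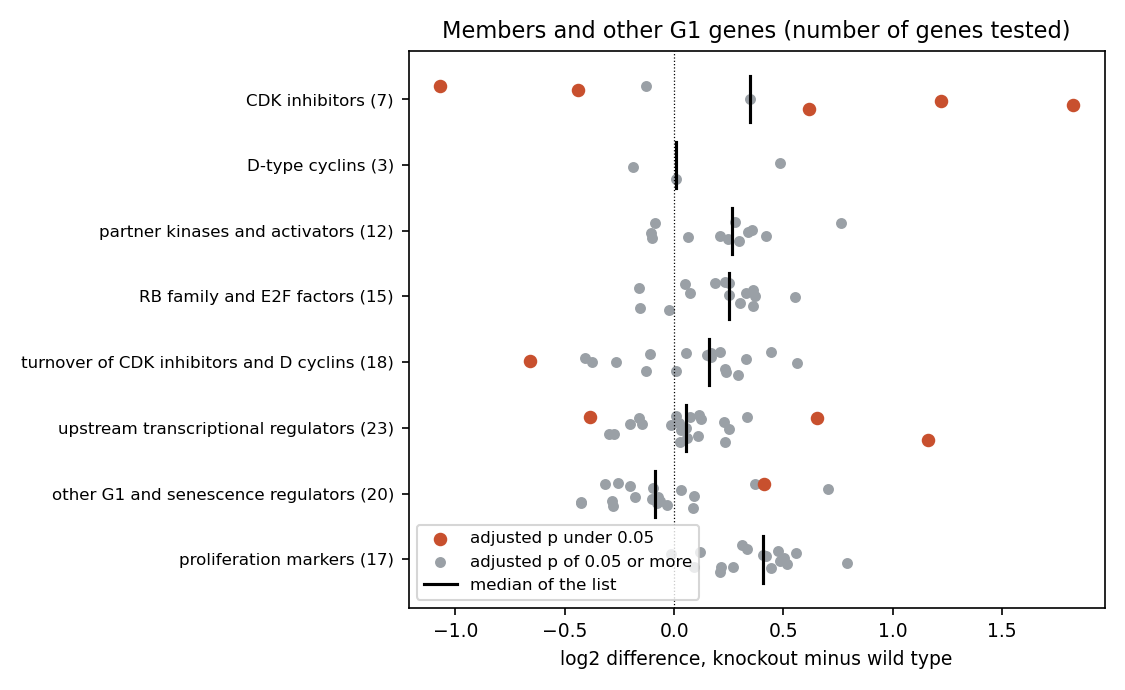
Log2 difference, knockout minus wild type (x axis), of each tested gene in the 2 member families and the 6 lists (rows, number of genes in brackets), orange where the adjusted p is under 0.05, with the list median as a black line; vertical scatter has no meaning. The called inhibitors lie at both ends, from -1.07 to 1.82, and the proliferation markers lie mostly right of 0 with a median of 0.41 and no call.

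The log ratios most like those of Cdkn2b over the 7 arrays, among 16639 genes with a symbol, were those of Myb, a transcription factor of progenitors (Pearson r = 0.998), Ttc39c (0.989) and Akr1b10 (0.989). For Cdkn2d, the fall with the smallest p, they were Fosl2, an AP-1 subunit (0.991), Tfpi (0.988) and Nrros (0.987). These correlations over 7 arrays include the group difference itself and are given as a description.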

How the data were processed

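The deposited scanner files hold spot intensity values on a linear scale and a log10 ratio of red over green, written by Agilent Feature Extraction 11.0.1.1 per the file headers (the submitters' processing notes name 10.7.3.1). The deposited series value table equalled that ratio on a log2 scale to within 0.001, and the medians of its columns were 0.163 to 0.254.

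Median signals were corrected with normexp (offset 50) and normalized by loess within arrays, in limma 3.58.1 under R 4.3.3; figures used matplotlib 3.10.9. Control spots and 2597 spots flagged as feature outliers or for uneven local background were left out. Probes were named through RefSeq accessions (26581 of 39429). Genes needed signal well above background on 3 arrays and 2 values a group; the brightest probe stood for a gene. The brightest-probe fit was adjusted over all genes (Benjamini-Hochberg), and single probes over all 30293 tested probes. The fit was run on simulated independent normal values with no slide effect, Xist pattern or deviant array, so that run does not bear on these.

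The members, the lists and the handling of flags were chosen with earlier results of these data known. Named were all members, up to 4 genes of each list by smallest p, Gfi1, and the 3 genes most correlated with the called rise and the called fall of smallest p. Replicates are separate pools of mice per the labels, and their number limits the precision. Alternatives covered background, normalization, flags, filters, probes, variance, slide, replicate number and each array left out, and, added after seeing the data, scaling between arrays and the Xist pattern as a block.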

Additional observations from a re-analysis of the deposited data

How the results depend on the processing

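With no block 1908 genes, 5 of the 10 members and 5 listed G1 genes were called, and the members' median difference was 0.18. Subtracting background with a floor gave 944, 3 and 3 calls. The scanner's log ratio and the series value table each gave 3 members and 3 listed genes. Median centring gave 3 members (3 higher, 0 lower, against 3 and 2), a median of 0.29, and 897 of 1619 calls higher, against 833 of 1908. A minimum log2 change of 0.5 gave 210 genes, 1 member (Cdkn2b) and 0 listed genes in limma (1 at an unadjusted p under 0.05). Slide as a fixed block gave 478, 1 and 1, and slide as a random block gave 2122, 6 and 7. Averaging probes gave 7 members (5 higher, 2 lower, with Cdkn1a and Ccnd2 added) and a median of 0.27, and leaving out wild-type array 4 together with knockout array 3 gave 1104 calls and a median of 0.29. The Xist pattern as a block gave 11 listed genes, and the median within the high-Xist pools was 0.40.

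The labels do not pair same-numbered arrays. Their deviations from the group means correlated at 0.04, 0.24 and 0.02. Knockout arrays 1 and 3 correlated best with wild-type arrays 3 and 4, while knockout array 2 correlated best with wild-type array 2. Whether same-numbered arrays share more than a number was not tested. With the replicate block there were 1083 genes, 3 members and 2 listed genes, with a median of 0.14, and Cdkn1b (adjusted p = 0.173) and Cdkn2d (0.0519) were not called.

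Leaving out each array in turn gave 1253 to 1888 genes, 4 to 6 members, 2 to 10 listed genes and medians from 0.13 to 0.30. Without knockout array 2 or wild-type array 4 the genes were 1253 and 1266. Cdkn2a ran from -0.50 to 0.53 on leaving out an array, positive without knockout array 3, and was 0.43 without that array and wild-type array 4. Ccnd3 ran from -0.018 to 0.060 on leaving out an array, and was -0.00023 with slide as a random block, -0.017 with the replicate block and -0.041 without wild-type array 4 and knockout array 3. The other 8 members kept their sign in all 32 alternatives. The cause of these changes was not tested. Aquantile leaves log ratios as they are. The filter and variance settings likewise left the members' differences unchanged. Counts of alternative fits passed are thus not counts of independent tests.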

Other observations

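The genes beside the members were examined after the members' values had been seen, as the 2 nearest tested genes with a symbol on each side in RefSeq order. Of 36 such neighbours that are no member, 4 passed the test in limma, against 7.53% of all tested genes, and nothing particular to these loci is read from that count. Mtap, an enzyme of the methionine salvage pathway that lies next to Cdkn2a on the side away from Cdkn2b, was higher in the knockout (0.65 ± 0.12, SE, adjusted p = 0.01). The tested gene beyond Mtap, the interferon gene Ifna1, did not pass (-0.01, adjusted p = 0.985). Eps15, near Cdkn2c, was lower (-0.53, adjusted p = 0.0467), opposite to Cdkn2c. Atg4d and Slc44a2, on either side of Cdkn2d, were lower (-0.40, adjusted p = 0.0185, and -0.44, adjusted p = 0.0495), while the genes directly beside Cdkn2d, Kri1 and Ap1m2, stood at -0.04 and -0.05. The neighbours of Cdkn1b and of Cdkn1c, Kcnq1ot1 among them, were not called.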
